A study of Saccharomyces cerevisiae with 10 samples.

Results

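The MRPL genes of Saccharomyces cerevisiae encode proteins of the large subunit of the mitochondrial ribosome. All S. cerevisiae genes whose annotated symbol is MRPL followed by a number were taken, which gave 34 of the 5449 genes tested, each with 1 probe set of its own. The rule reads gene symbols and no measured value, but it was chosen with earlier results of these data known. The RefSeq annotation gives all 34 a ribosomal protein name of the large subunit. Of these names, 21 mark a protein with a bacterial counterpart and 13 a protein particular to mitochondrial ribosomes.

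Messenger RNA was read on 10 Affymetrix yeast arrays, 2 for each of 5 genotypes of haploid yeast in the genetic background Sce3044. The Ancestral genotype carried no evolved allele. The other genotypes carried evolved alleles, marked e, of 1 or 2 genes: MKT1e, MDS3e, MDS3e MKT1e and PMA1e MKT1e. No strain with PMA1e alone was analysed here. Every culture came from an overnight culture in rich medium, was moved to a defined medium of low glucose, 0.25% dextrose, and was sampled at an optical density of about 0.2, about 17 h later. MKT1 encodes a regulator of messenger RNA after transcription. MDS3 belongs to nutrient signalling, and PMA1 encodes the pump that exports protons from the cell. The probe sets read the level of a messenger RNA and not its allele, so they do not check the genotypes.

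As background, mitochondrial ribosomes make the few proteins encoded by mitochondrial DNA, which are mostly core subunits of the respiratory chain and the ATP synthase. Nearly all of their own proteins are encoded in the nucleus, translated in the cytosol and imported. In yeast, the RNA-binding protein Puf3 binds many messenger RNAs for mitochondrial proteins, those of the mitochondrial ribosome among them, and the Mkt1 and Pbp1 proteins act in the control of such messenger RNAs. Yeast represses respiratory functions in high glucose and expresses them more when glucose is low.

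Values are given as log2 of the intensity plus 16, and a difference on this scale is called a log2 difference, followed by its standard error (SE) from the limma fit. A gene passed the test where limma's p, two-sided and adjusted by the Benjamini-Hochberg method over 5449 genes, was under 0.05. All 34 genes lay above the background limit of 4.15 on every array. The medians over all genes ranged by 0.105 among the 10 arrays, and replicate arrays correlated with r from 0.996 to 0.998 across genes. The labels call the replicates biological, and n is 2 arrays for each genotype throughout. The number of arrays limits the precision. An array reads a share of the RNA pool, so a higher level and less of the other RNA per cell cannot be told apart.

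The MRPL genes divided the arrays by the MKT1 allele. The median level of the 34 genes was 8.20 and 8.18 on the Ancestral arrays and 8.36 and 8.33 on the MDS3e arrays. It was 8.80 and 8.83 in MKT1e, 8.93 and 8.93 in MDS3e MKT1e, and 8.82 and 8.86 in PMA1e MKT1e. For 33 of the 34 genes, all 6 arrays of the genotypes with MKT1e lay above all 4 arrays of those without it, against 10.3% of all genes. The exception was MRPL51, of which Ancestral array 1, at 8.58, and MDS3e array 1, at 8.571, lay above MKT1e array 2, at 8.568. All 34 genes differed among the 5 genotypes by the limma F-test, which 55% of all genes passed.

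**Figure D1:**
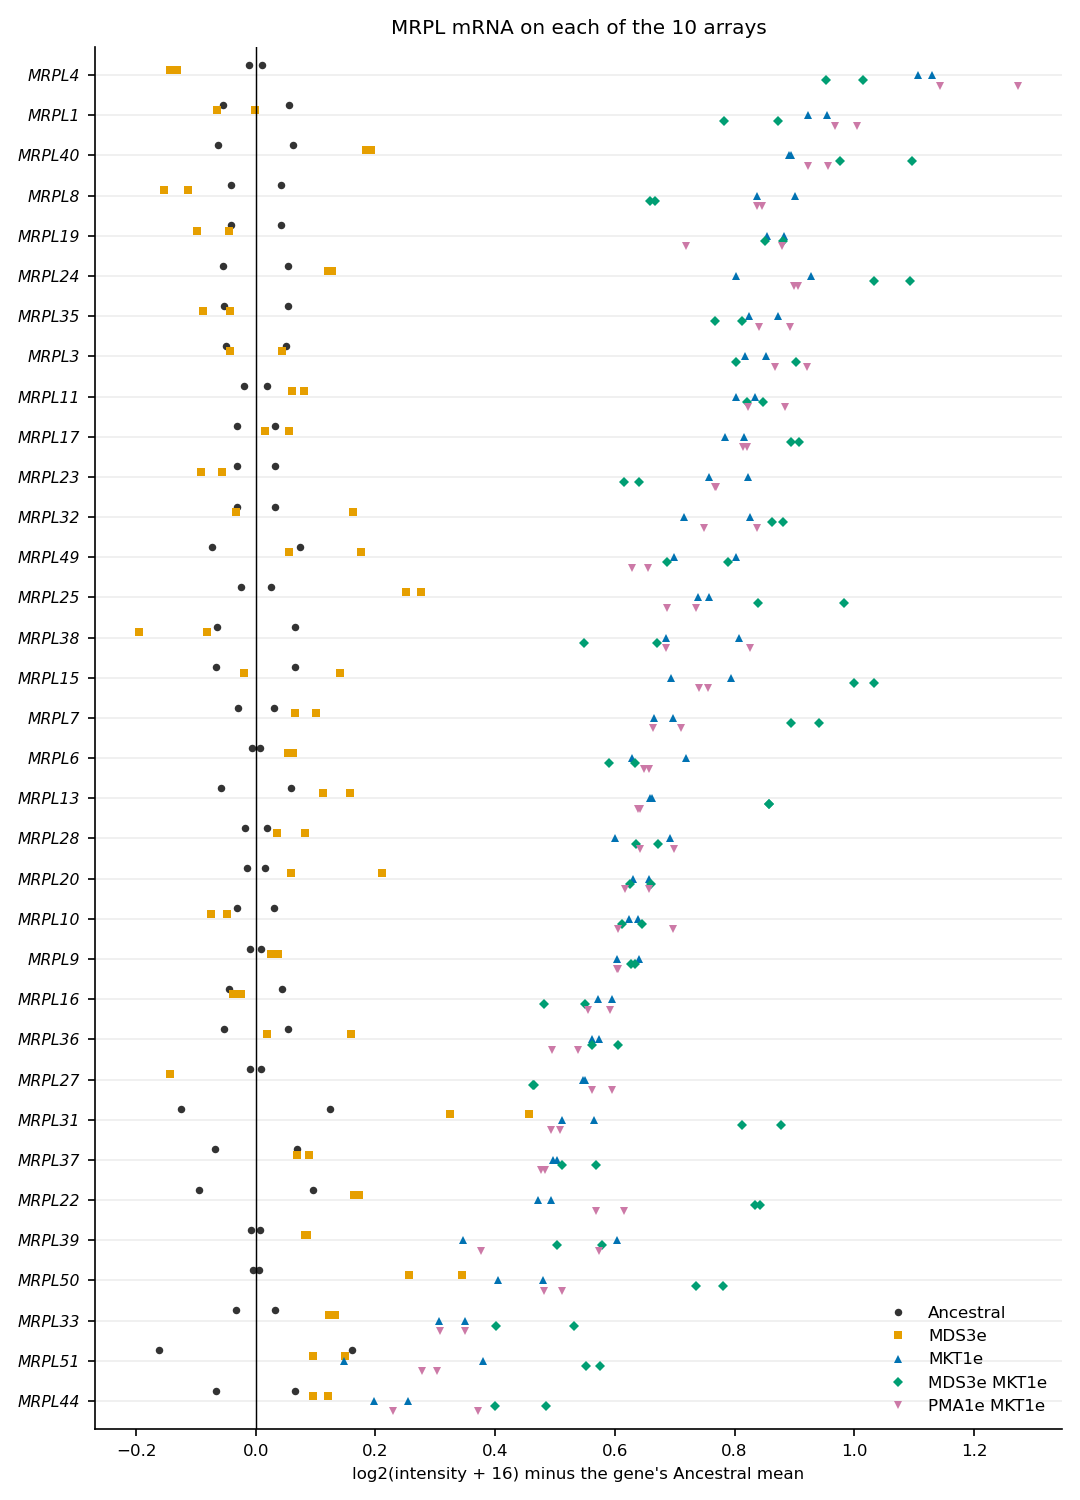
Each row is 1 MRPL gene, ordered by its difference between MKT1e and Ancestral, and the horizontal axis gives log2(intensity + 16) minus the gene's Ancestral mean. Each symbol is 1 array. The arrays of the 3 genotypes with MKT1e lie to the right of those of Ancestral and MDS3e for 33 of 34 genes.

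The comparison of MKT1e with Ancestral asked what the evolved MKT1 allele did alone. In it, 33 of the 34 MRPL genes rose, where 11.8% of all genes rose and 8.48% fell. The log2 differences of the 34 ran from 0.23 to 1.12 with a median of 0.68, and the median over all genes was -0.01. The spread between the 2 arrays of a genotype was small beside this, with a median SD over the 34 genes of 0.06 in Ancestral and 0.03 in MKT1e. For 33 of the 34 genes both MKT1e arrays lay above both Ancestral arrays, which held for 27.8% of all genes.

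The largest rise was that of MRPL4, which encodes uL29m, a protein at the exit of the tunnel through which the new protein leaves the ribosome. Its intensities were 173 and 176 in Ancestral, 401 and 394 in MKT1e, 158 and 156 in MDS3e, 369 and 353 in MDS3e MKT1e, and 404 and 444 in PMA1e MKT1e. The arrays fell into 2 ranges that did not meet, with all arrays of Ancestral and MDS3e below all others. The log2 difference between MKT1e and Ancestral was 1.12 ± 0.06 (SE), or 2.17-fold in intensity plus 16 (limma adjusted p = 2.9e-06).

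MRPL1 encodes uL1m, the protein of the stalk on the side where transfer RNA leaves the ribosome. The log2 levels of MRPL1 were 7.76 and 7.87 in Ancestral, 8.74 and 8.77 in MKT1e, 7.75 and 7.81 in MDS3e, 8.69 and 8.60 in MDS3e MKT1e, and 8.78 and 8.82 in PMA1e MKT1e. The MDS3e arrays overlapped the Ancestral ones, and every array with MKT1e was higher. The log2 difference between MKT1e and Ancestral was 0.94 ± 0.06 (limma adjusted p = 4.8e-06).

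MRPL40, which encodes uL24m at the tunnel exit, had the dimmest probe set of the 34. Its log2 levels were 7.05 and 7.18 in Ancestral, 8.01 and 8.01 in MKT1e, 7.30 and 7.31 in MDS3e, 8.21 and 8.09 in MDS3e MKT1e, and 8.04 and 8.07 in PMA1e MKT1e. Here the MDS3e arrays also lay above both Ancestral arrays, though far below those with MKT1e. MRPL40 rose by 0.89 ± 0.06 in MKT1e (limma adjusted p = 6.6e-06). The brightest probe set was that of MRPL23, which encodes uL13m. Its log2 levels were 9.07 and 9.14 in Ancestral, 9.86 and 9.93 in MKT1e, 9.01 and 9.05 in MDS3e, 9.75 and 9.72 in MDS3e MKT1e, and 9.87 and 9.87 in PMA1e MKT1e. It rose by 0.79 ± 0.05 in MKT1e, so the brightest and the dimmest probe sets both showed the difference.

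The smallest differences were those of MRPL33, MRPL51 and MRPL44. MRPL33, which encodes uL30m, had log2 levels of 8.44 and 8.37 in Ancestral, 8.75 and 8.71 in MKT1e, 8.52 and 8.53 in MDS3e, 8.80 and 8.93 in MDS3e MKT1e, and 8.75 and 8.71 in PMA1e MKT1e. It rose by 0.33 ± 0.06 in MKT1e (limma adjusted p = 0.0031). MRPL44, which encodes the mitochondria-specific protein mL53, had log2 levels of 8.33 and 8.20 in Ancestral, 8.46 and 8.52 in MKT1e, 8.39 and 8.36 in MDS3e, 8.67 and 8.75 in MDS3e MKT1e, and 8.64 and 8.49 in PMA1e MKT1e. Its log2 difference of 0.23 ± 0.07 passed narrowly (limma adjusted p = 0.040). That call was lost without Ancestral array 2, where the difference was 0.16 (adjusted p = 0.16), without either MKT1e array or either MDS3e array, with only the compared genotypes in the fit, with a pseudocount of 1 and after quantile normalization (adjusted p = 0.059). MRPL51, which encodes mL43, was the gene that did not pass. Its log2 levels were 8.58 and 8.26 in Ancestral, 8.80 and 8.57 in MKT1e, 8.57 and 8.52 in MDS3e, 8.97 and 9.00 in MDS3e MKT1e, and 8.72 and 8.70 in PMA1e MKT1e. Its Ancestral arrays differed more than those of any other MRPL gene, with an SD of 0.23. The log2 difference between MKT1e and Ancestral was 0.26 ± 0.10 (limma adjusted p = 0.092), and without Ancestral array 1 it was 0.42 (adjusted p = 0.011).

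**Figure D2:**
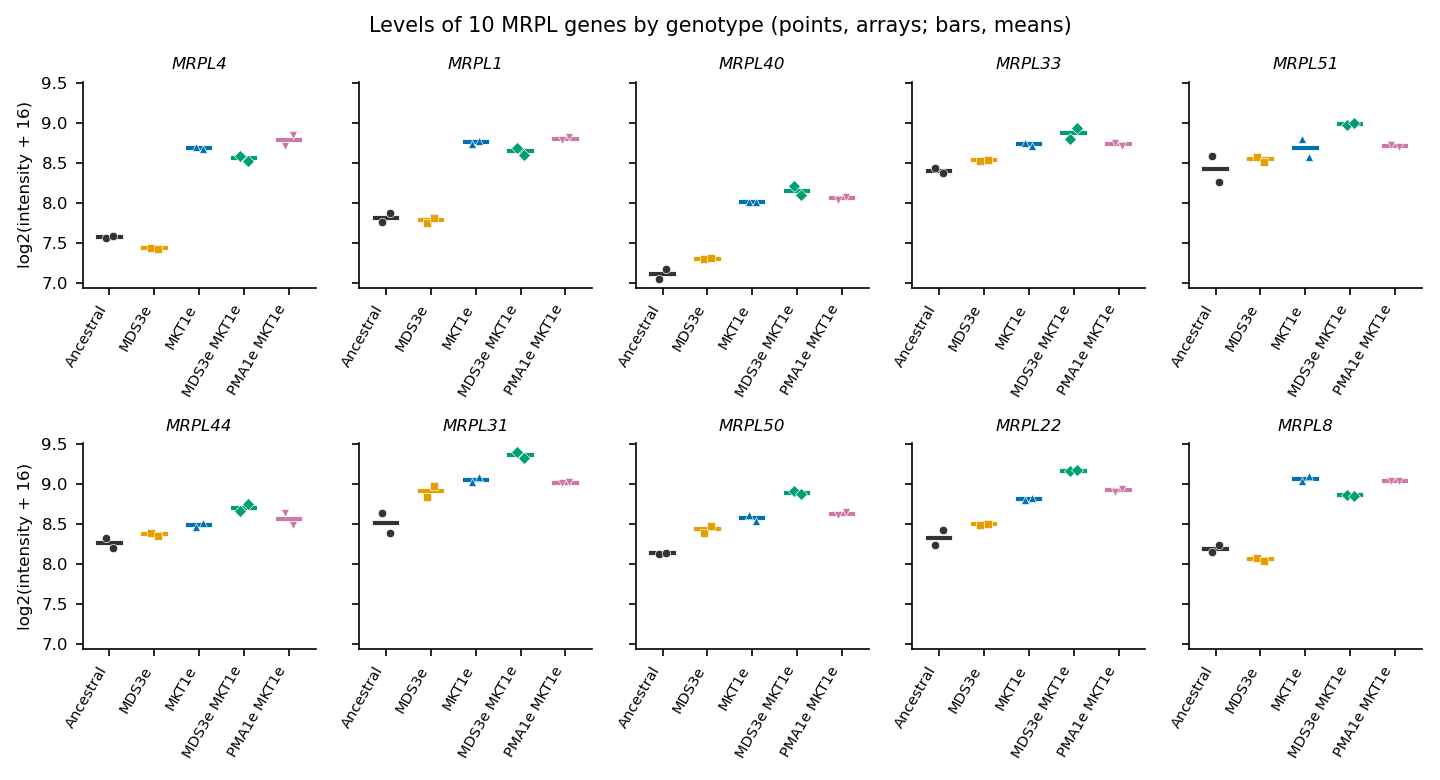
Levels of 10 MRPL genes as log2(intensity + 16), with 1 panel for each gene; points are arrays and bars are the means of 2 arrays. MRPL4 and MRPL1 fall into a low pair of genotypes without MKT1e and a high trio with it. MRPL31, MRPL50, MRPL22, MRPL40, MRPL33, MRPL51 and MRPL44 are highest in MDS3e MKT1e.

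The MRPL genes rose in each region of the subunit listed here. Large-subunit genes with other kinds of symbol were left out of these groups. The MRPL genes of the stalks are MRPL1, MRPL11 and MRPL19, which encode uL1m, uL10m and uL11m. These 3 genes rose by 0.82 to 0.94 in MKT1e, with a median of 0.87. Around the tunnel exit lie the products of MRPL3, MRPL4, MRPL13, MRPL22, MRPL27 and MRPL40. All 6 of their genes rose, by 0.48 to 1.12 with a median of 0.75, so that this group held the largest difference of the 34 and also one of the smaller ones, that of MRPL22. The central protuberance is the head of the large subunit that contacts the small one. Its 5 MRPL genes, MRPL7, MRPL17, MRPL28, MRPL35 and MRPL36, rose by 0.57 to 0.85 with a median of 0.68. The conserved core proteins uL3m, uL15m, uL16m and uL14m are encoded by MRPL9, MRPL10, MRPL16 and MRPL38. These 4 genes rose by 0.58 to 0.75, with a median of 0.63.

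Another 16 MRPL genes belong to none of these groups, and 15 of them rose in MKT1e. The 9 with a bacterial counterpart had a median log2 difference of 0.75. Among them were MRPL8, which encodes bL17m, with 0.87, MRPL24, which encodes bL28m, with 0.86, and MRPL50, which encodes bL9m, with 0.44. The 7 mitochondria-specific genes had a median of 0.54, from 0.23 for MRPL44 to 0.75 for MRPL25. Among all MRPL genes, the 21 with a bacterial counterpart all rose, with a median of 0.75, as did 12 of the 13 mitochondria-specific ones, with a median of 0.65. These 2 classes overlapped in range and the difference between them was not tested.

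The MRPL genes also rose with MKT1e where the MDS3 allele was the evolved one. Between MDS3e MKT1e and MDS3e, 34 of 34 genes rose, where 11% of all genes rose and 6.24% fell. The log2 differences ran from 0.33 for MRPL44 to 1.12 for MRPL4, with a median of 0.68 against -0.01 over all genes. Among the MRPL genes, those of the stalks rose by 0.76 to 0.94 and those of the tunnel exit by 0.61 to 1.12. Those of the central protuberance rose by 0.49 to 0.87 and those of the core by 0.55 to 0.75. MRPL51 passed in this comparison, with 0.44 ± 0.10 (limma adjusted p = 0.013), though the call was lost without any one of these 4 arrays, where the difference ran from 0.41 to 0.47. That of MRPL44 was lost without MDS3e array 2 (adjusted p = 0.059) or MDS3e MKT1e array 2 (adjusted p = 0.055).

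The MKT1e and Ancestral arrays are separate from the MDS3e MKT1e and MDS3e arrays, so the 2 estimates of the MKT1e effect share no array. Across the 34 genes they correlated with Pearson's r of 0.89 and Spearman's rho of 0.88, given as a description because genes are not independent replicates and the estimates share probe sets and normalization. Over all genes the same r was 0.81. The gap between the 2 estimates had a median of 0.06 and was at most 0.21. The interaction of MDS3e and MKT1e tests this gap for each gene. No MRPL gene passed it by limma, 0 had an unadjusted p under 0.05, and 0.385% of all genes passed. The largest interaction was that of MRPL15, which encodes mL57, with 0.21 ± 0.10 (limma adjusted p = 0.75). The 95% intervals of the 34 interactions together spanned -0.35 to 0.50 on the log2 scale, with a median SE of 0.08. This span bounds the size of a dependence of the MKT1e effect on the MDS3 allele that these arrays could have missed.

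**Figure D3:**
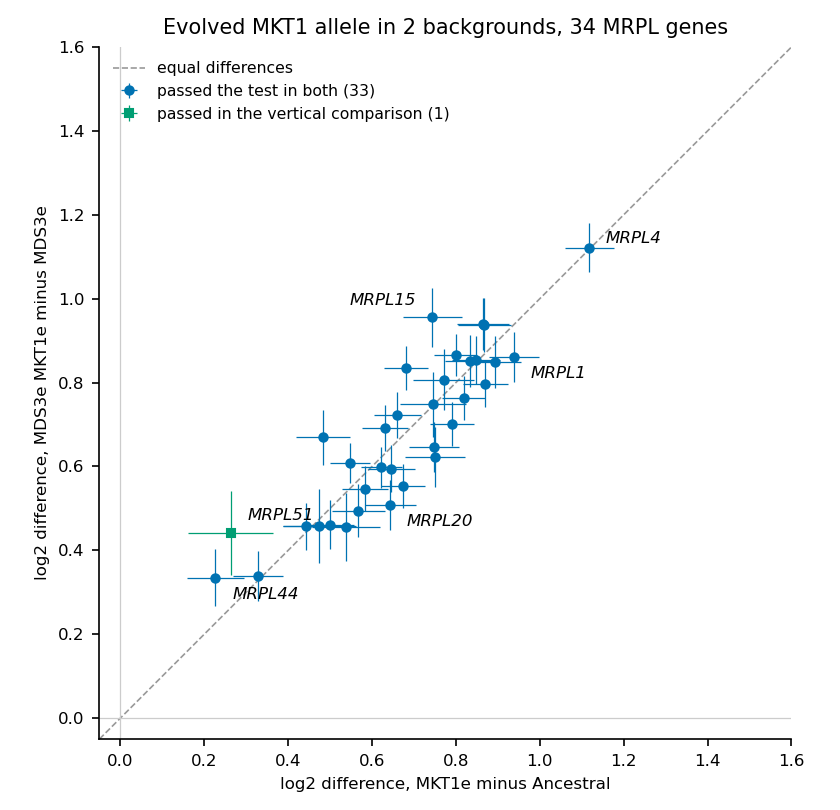
Each point is 1 MRPL gene, with the log2 difference of MKT1e minus Ancestral on the horizontal axis and of MDS3e MKT1e minus MDS3e on the vertical axis; bars are standard errors and the dashed line marks equal differences. All 34 points lie above 0 on both axes, and the 2 estimates differ by at most 0.21.

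Against Ancestral, MDS3e MKT1e had 34 of 34 MRPL genes higher, where 21.9% of all genes rose and 16.7% fell. The log2 differences ran from 0.44 for MRPL44 to 1.06 for MRPL24, with a median of 0.75 against 0.03 over all genes. MRPL40 rose by 1.04 and MRPL15 by 1.02 in this strain. MRPL51 rose too, by 0.56 ± 0.10 (limma adjusted p = 0.0017).

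In PMA1e MKT1e, 33 of 34 MRPL genes rose against Ancestral, where 14.3% of all genes rose and 7.32% fell. The log2 differences ran from 0.29 to 1.21, with a median of 0.66 against 0.01 over all genes. MRPL4 again had the largest difference, 1.21, and MRPL51, with 0.29 ± 0.10 (limma adjusted p = 0.067), did not pass. Without Ancestral array 1 MRPL51 passed, with 0.45 (adjusted p = 0.0077), and MRPL44 lost its call without Ancestral array 2 (adjusted p = 0.054) or PMA1e MKT1e array 1 (adjusted p = 0.096). MRPL51 also passed after cyclic loess (adjusted p = 0.049). This comparison uses the same Ancestral arrays as those of the other strains.

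The effect of PMA1e could be read only where MKT1e was present, by setting PMA1e MKT1e against MKT1e. By limma, 0 of 34 MRPL genes passed and 0 had an unadjusted p under 0.05. Of all genes 0.0184% passed, which was 1 gene. The log2 differences of the 34 lay between -0.11 for MRPL49 and 0.11 for MRPL22, with a median of 0.01. Their 95% intervals together spanned -0.27 to 0.25, which bounds the size of a difference that these arrays could have missed.

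Most MRPL genes did not pass the test in MDS3e. Against Ancestral 4 of 34 rose and 0 fell by limma, where 14.5% of all genes rose and 10.7% fell, so the share that rose was near that of all genes, and 10 of the 34 had an unadjusted p under 0.05, as had 2071 of the 5449 genes. The median log2 difference was 0.07 against 0.03 over all genes, and the range was -0.14 to 0.39. The 4 that rose were MRPL31, MRPL50, MRPL25 and MRPL40. The split of calls depended on the scaling: after median centring, quantile normalization or cyclic loess, 3 genes rose and 3 fell. Under these scalings MRPL40 no longer passed, and MRPL4, MRPL8 and MRPL27 fell by 0.19 to 0.21. Without rescaling, the log2 difference of MRPL27 was -0.14 ± 0.05 (limma adjusted p = 0.0525). It also passed as lower with a pseudocount of 64 (adjusted p = 0.020) and with trended and robust variances (adjusted p = 0.034).

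MRPL31 encodes mL60 and had the largest difference of the 34 in MDS3e. The arrays gave log2 levels of 8.65 and 8.40 in Ancestral, 9.03 and 9.09 in MKT1e, 8.85 and 8.98 in MDS3e, 9.40 and 9.33 in MDS3e MKT1e, and 9.01 and 9.03 in PMA1e MKT1e. The MDS3e arrays lay between the Ancestral and the MKT1e arrays, and the MDS3e MKT1e arrays above all others. It rose by 0.39 ± 0.08 in MDS3e (limma adjusted p = 0.0077), and the call was lost without MDS3e array 2, where the difference was 0.32 (adjusted p = 0.064).

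MRPL50 encodes bL9m, and its log2 levels were 8.13 and 8.14 in Ancestral, 8.62 and 8.54 in MKT1e, 8.39 and 8.48 in MDS3e, 8.92 and 8.87 in MDS3e MKT1e, and 8.62 and 8.65 in PMA1e MKT1e. The MDS3e arrays lay between the Ancestral and the MKT1e arrays, and the MDS3e MKT1e arrays above all others. It rose by 0.30 ± 0.06 in MDS3e (limma adjusted p = 0.0047) and was the one gene of the 4 that passed under all 20 alternative settings, with 0.24 to 0.35.

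MRPL25 encodes mL59, and its log2 levels were 7.86 and 7.81 in Ancestral, 8.60 and 8.58 in MKT1e, 8.09 and 8.11 in MDS3e, 8.82 and 8.68 in MDS3e MKT1e, and 8.57 and 8.52 in PMA1e MKT1e. It rose by 0.26 ± 0.06 in MDS3e (limma adjusted p = 0.011) and by 0.75 ± 0.06 in MKT1e. The MDS3e call was lost without Ancestral array 2, with a difference of 0.24 (adjusted p = 0.056), and without either MDS3e array. The rise of MRPL40 in MDS3e was 0.19 ± 0.06 (limma adjusted p = 0.048), and without Ancestral array 1 it was 0.13 (adjusted p = 0.20). This call was also lost without either array of MKT1e, MDS3e or PMA1e MKT1e, with a pseudocount of 1 (adjusted p = 0.058) and with only the compared genotypes in the fit (adjusted p = 0.11). The count of MRPL genes that passed in MDS3e was 2 without MDS3e array 1 and 1 without MDS3e array 2.

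Where MKT1e was present, MRPL genes passed in both directions for the MDS3e allele. Between MDS3e MKT1e and MKT1e 8 of 34 rose and 2 fell, where 15% of all genes rose and 11.5% fell. The median was 0.02 against 0.03 over all genes, so as a set the MRPL genes lay where all genes did. The counts of higher and lower genes were 5 and 3 after median centring, 6 and 2 after quantile normalization, and 3 and 2 after cyclic loess.

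The largest rise was that of MRPL22, which encodes uL22m, a protein that lines the tunnel. Its log2 levels were 8.24 and 8.43 in Ancestral, 8.80 and 8.82 in MKT1e, 8.50 and 8.50 in MDS3e, 9.16 and 9.17 in MDS3e MKT1e, and 8.90 and 8.95 in PMA1e MKT1e. The MDS3e MKT1e arrays were the highest of the 10. MRPL22 rose by 0.36 ± 0.06 between MKT1e and MDS3e MKT1e (limma adjusted p = 0.0038), MRPL50 by 0.32 ± 0.06 (adjusted p = 0.0032) and MRPL31 by 0.31 ± 0.08 (adjusted p = 0.020). Smaller rises were those of MRPL15 with 0.27, MRPL7 with 0.24, MRPL44 with 0.22, MRPL24 with 0.20 and MRPL13 with 0.20. MRPL51, with 0.30 ± 0.10, did not pass (limma adjusted p = 0.0512). It passed with the filter on dim genes (adjusted p = 0.0498) and with trended and robust variances (adjusted p = 0.041). With only the compared genotypes in the fit it passed too (adjusted p = 0.037).

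The 2 genes that fell were MRPL8 and MRPL23. MRPL8 had log2 levels of 8.16 and 8.24 in Ancestral, 9.04 and 9.10 in MKT1e, 8.08 and 8.04 in MDS3e, 8.86 and 8.86 in MDS3e MKT1e, and 9.04 and 9.04 in PMA1e MKT1e. Its MDS3e MKT1e arrays lay below those of the other genotypes with MKT1e. It fell by 0.21 ± 0.05 (limma adjusted p = 0.019), and MRPL23 fell by 0.16 ± 0.05 (adjusted p = 0.045). The MRPL23 call was lost after quantile normalization or cyclic loess, with a pseudocount of 1 and with only the compared genotypes in the fit. Both calls were lost when single arrays were left out. Without MKT1e array 2 the difference was -0.18 for MRPL8 and -0.13 for MRPL23. MRPL4 passed as lower under the 3 other scalings, with -0.19 to -0.21. The count of genes that passed in this comparison was 2 without MKT1e array 2, 2 without MDS3e MKT1e array 1 and 4 without MDS3e MKT1e array 2. MRPL22 and MRPL50 passed under all 20 alternative settings.

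The 2 estimates of the MDS3e effect, from MDS3e against Ancestral and from MDS3e MKT1e against MKT1e, also share no array. Across the 34 genes they correlated with r of 0.80 and rho of 0.81, and 31 genes had the same sign in both, against an r of 0.84 over all genes. MRPL31 had 0.39 and 0.31, MRPL50 had 0.30 and 0.32, MRPL22 had 0.17 and 0.36, and MRPL8 had -0.13 and -0.21. The interaction tests given above apply to these gaps as well, and none passed.

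**Figure D4:**
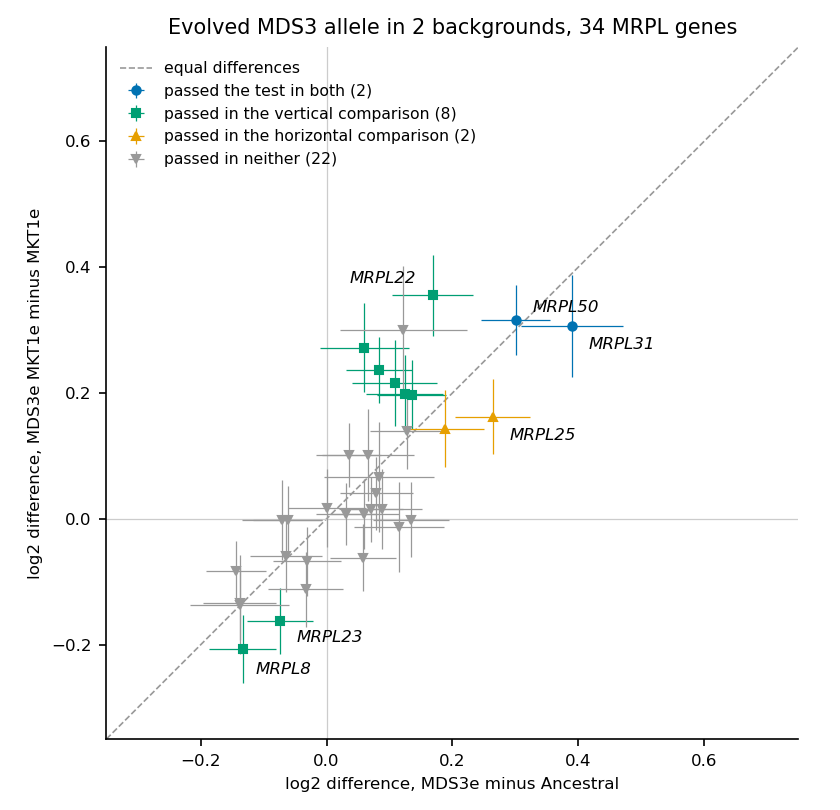
Each point is 1 MRPL gene, with the log2 difference of MDS3e minus Ancestral on the horizontal axis and of MDS3e MKT1e minus MKT1e on the vertical axis; bars are standard errors and the dashed line marks equal differences. Most points lie near 0, with MRPL31 and MRPL50 at the upper right and MRPL8 at the lower left.

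Between the strains with 2 evolved alleles 9 MRPL genes passed and 25 of 34 did not, against 3740 of all 5449 genes that did not. The share that passed was thus not above that of all genes. Between PMA1e MKT1e and MDS3e MKT1e 7 of 34 MRPL genes were lower in PMA1e MKT1e and 2 were higher, where 16.1% of all genes were lower and 15.3% higher. The lower ones were MRPL31 with -0.34 ± 0.08 (limma adjusted p = 0.010), MRPL15 with -0.27, MRPL50 with -0.26, MRPL22 with -0.25, MRPL7 with -0.23, MRPL13 with -0.22 and MRPL25 with -0.20. The higher ones were MRPL4 with 0.22 (adjusted p = 0.016) and MRPL8 with 0.18. MRPL51, with -0.27, did not pass, but it passed with only the compared genotypes in the fit (limma adjusted p = 0.0078). The counts of higher and lower genes were 2 and 6 after median centring, 5 and 6 after quantile normalization, and 4 and 4 after cyclic loess. The count that passed was 2 without MDS3e MKT1e array 1, 4 without MDS3e MKT1e array 2, and 2 without either PMA1e MKT1e array. MRPL50 alone passed under all 20 alternative settings. These calls use the same MDS3e MKT1e arrays as the preceding comparison.

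Genes that work with the MRPL proteins also rose in MKT1e, where 11.8% of all genes rose and 8.48% fell. Of the large-subunit genes with other kinds of symbol, 11 of 11 rose against Ancestral, with a median of 0.66. The largest rises were those of RML2, which encodes uL2m, with 0.94 ± 0.08, IMG2 with 0.79, MRP7 with 0.72 and YML6 with 0.68. Of the small-subunit genes 31 of 32 rose, with a median of 0.64, led by MRPS35 with 0.96, RSM28 with 0.94, RSM25 with 0.85 and MRP4 with 0.84. The exception was MRP2, with 0.28 (limma adjusted p = 0.14).

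All 8 translation factor genes of the mitochondrion rose in MKT1e, with a median of 0.56, against the 11.8% of all genes that rose. MEF1, which encodes the elongation factor that moves the ribosome along, rose by 1.06 ± 0.06. RRF1, for ribosome recycling, rose by 0.72, IFM1, for initiation, by 0.70 and MRF1, for release, by 0.67. Of 9 genes for ribosome assembly and processing 7 rose, with a median of 0.41. ATP25 rose by 0.47, AFG3, a subunit of the protease that matures the bL32m protein encoded by MRPL32, by 0.46, the helicase gene MRH4 by 0.44 and the RNA methyltransferase gene MRM1 by 0.42. MTG1, with 0.08, and MRM2, with 0.19, did not pass. The 4 genes that attach the ribosome to the inner membrane all rose: MBA1 by 0.65, YLH47 by 0.61, MDM38 by 0.36 and the insertase gene OXA1 by 0.34. Among these partner genes the calls of RSM27, TUF1, AIM23 and YTA12 were lost when single arrays were left out, Ancestral and MKT1e arrays among them.

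**Figure D5:**
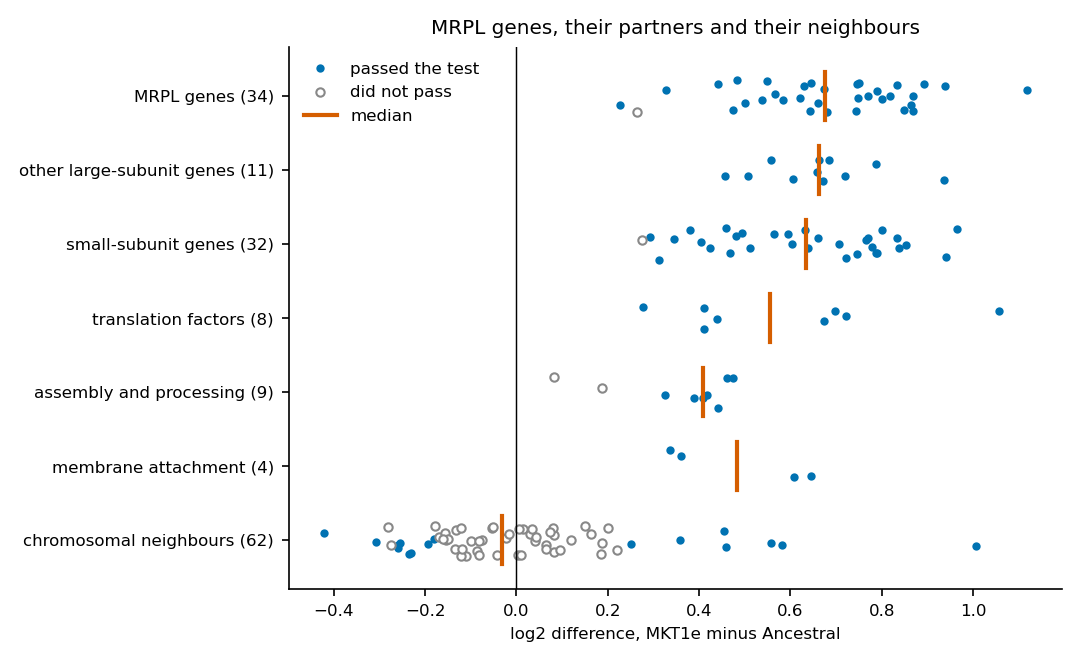
Log2 difference of MKT1e minus Ancestral for the MRPL genes, for lists of genes that work with them and for their chromosomal neighbours, with the number of genes in parentheses. Points are genes, filled where they passed the test, and bars are medians, which run from 0.41 to 0.68 for the ribosome and its partners and stand at -0.03 for the neighbours.

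The nearest protein-coding genes on either side of each MRPL gene in the R64 annotation gave 62 neighbours with a value. In MKT1e 7 of these rose, 9 fell and 46 did not pass, with a median of -0.03, against the 11.8% of all genes that rose and 8.48% that fell, so the share that rose was near that of all genes. No neighbour was itself an MRPL gene. The largest fall was that of the ergosterol synthesis gene ERG6, next to MRPL39, with -0.42, and the next that of the nuclear export gene CRM1, next to MRPL9, with -0.31. The neighbours were named after their values were seen. Those that rose were COX10 next to MRPL40 with 1.01, CMC1 next to MRPL31 with 0.58, MRX14 next to MRPL1 with 0.56, COA3 next to MRPL8 with 0.46, DSS1 next to MRPL33 with 0.46, IMP3 next to MRPL6 with 0.36 and TIM11 next to MRPL35 with 0.25. COX10, CMC1 and COA3 act in the assembly of cytochrome oxidase, MRX14 is a mitochondrial ribosomal protein gene, DSS1 acts in mitochondrial RNA turnover, IMP3 in the processing of cytosolic ribosomal RNA and TIM11 encodes a subunit of the ATP synthase. The call of TIM11 was lost without Ancestral array 2, without either MKT1e array and with only the compared genotypes in the fit.

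The messenger RNA of PUF3 was read in the same arrays, with log2 levels that were 6.10 and 5.81 in Ancestral, 5.63 and 5.50 in MKT1e, 6.14 and 5.99 in MDS3e, 6.13 and 5.99 in MDS3e MKT1e, and 5.65 and 5.75 in PMA1e MKT1e. The MDS3e MKT1e arrays lay within the range of the MDS3e arrays. PUF3 fell by 0.39 ± 0.10 in MKT1e (limma adjusted p = 0.018), a call lost without Ancestral array 1, without MKT1e array 2 and with only the compared genotypes in the fit. Over the alternatives this difference ran from -0.54 to -0.21. In MDS3e MKT1e its difference from Ancestral was 0.11 ± 0.10 (adjusted p = 0.42), and in PMA1e MKT1e it was -0.26 ± 0.10 (adjusted p = 0.090). PBP1 differed from Ancestral by 0.07 ± 0.06 in MKT1e (adjusted p = 0.44). MKT1 itself fell by 0.35 ± 0.11 in MKT1e (adjusted p = 0.039), a call lost under 11 of 20 alternative settings, among them the loss of any single array other than Ancestral array 2. Against the same Ancestral arrays MKT1 also fell by 0.35 in PMA1e MKT1e, where it passed. Its difference of -0.13 in MDS3e MKT1e did not pass. Whether these levels bear on those of the MRPL genes was not tested.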

How the data were processed

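RNA of 10 cultures was hybridised to 10 arrays. The deposited values are intensity values that the authors obtained with Affymetrix Expression Console, per the submitters' processing notes. Its version, algorithm and scaling, and the genome build, were not given in the sources used here. Their range showed a linear scale. Of 10928 probe sets, 5498 named 1 S. cerevisiae gene. The brightest probe set was used for 47 genes with several, which left 5449 genes, named through the platform annotation and RefSeq's R64 annotation.

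Values were taken as log2 of the deposited intensity plus 16, which shrinks differences of dim genes. limma 3.58.1 in R 4.3.3 fitted 1 mean for each genotype to all 10 arrays, with moderated variances. The comparisons numbered 9. The background limit, 4.15 or an intensity of 1.73, is the 95th percentile of the array's probe sets for another species. The fit was tested on simulated data. Replicate numbers were not treated as pairs, since same-numbered arrays deviated together with r over 0.1 in 3 of 10 pairs of genotypes. These were the 3 pairs among Ancestral, MKT1e and MDS3e, with r from 0.19 to 0.39.

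The members were taken by symbol, but the rule for them, the lists and the comparisons were chosen with earlier results of these data known. Values on every array are given for the 3 largest and 3 smallest differences in MKT1e, the largest called differences elsewhere, and the brightest and dimmest probe set, and up to 4 genes of each partner list are named. The alternatives were 3 other scalings, pseudocounts of 1 and 64, the mean of all probe sets, a filter on dim genes, trended and robust variances, a replicate block, only the compared genotypes, and leaving out each array.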

Additional observations from a re-analysis of the deposited data

How the results depend on the processing

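The rise of the MRPL genes in the strains with MKT1e kept its direction under the 3 other scalings, the pseudocounts of 1 and 64 and the loss of each compared array. The other settings leave the differences of these genes as they are and can change only the p-values. Over all 20 settings 32 genes always passed for MKT1e against Ancestral, 34 for MDS3e MKT1e against Ancestral, 32 for PMA1e MKT1e against Ancestral and 32 for MDS3e MKT1e against MDS3e. With a pseudocount of 64 the 4 medians were 0.60, 0.66, 0.59 and 0.62. The median of MDS3e MKT1e against Ancestral was 0.66 after median centring and 0.66 after quantile normalization. The smaller differences depended on the scaling. The median of MDS3e MKT1e against MKT1e was -0.0468 after median centring, and after cyclic loess 5 genes passed in that comparison. Median centring subtracts from each array its median over all genes. That median was 7.57 and 7.53 on the MKT1e arrays and 7.61 and 7.61 on the MDS3e MKT1e arrays. After cyclic loess the median of MDS3e against Ancestral was 0.0071 and that of PMA1e MKT1e against MDS3e MKT1e was -0.0053. The cause of the differing array medians and of the shifts after cyclic loess was not tested. With 1 array left out, where the lone array of a genotype is assumed to vary like the others, the count that passed ran from 1 to 5 for MDS3e against Ancestral, from 2 to 11 for MDS3e MKT1e against MKT1e and from 2 to 11 for PMA1e MKT1e against MDS3e MKT1e. Over single genes 119 calls were lost and 48 gained across comparisons and alternatives, and no called difference changed sign. A replicate block gave 33 genes for MKT1e against Ancestral, 3 for MDS3e against Ancestral and 11 for MDS3e MKT1e against MKT1e, and under it MRPL40 no longer passed in MDS3e against Ancestral (limma adjusted p = 0.060), while MRPL51 passed in PMA1e MKT1e against Ancestral (adjusted p = 0.037), in MDS3e MKT1e against MKT1e (adjusted p = 0.028) and in PMA1e MKT1e against MDS3e MKT1e (adjusted p = 0.035). It changed no other call of an MRPL gene. Same-numbered arrays correlated with r from -0.20 to 0.39. PMA1e MKT1e against MKT1e and the interaction had 0 genes that passed under every alternative.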
